A study of Mus musculus with 20 samples.

Results

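The genes described here are the ligands and receptors of the tumour necrosis factor (TNF) superfamily, followed in mouse liver. They were taken as every probe whose annotated gene name was Tnf, Lta, Ltb, Ltbr, Fas, Fasl, Cd40, Cd40lg, Cd27 or Cd70, or began with Tnfsf or Tnfrsf. This gave 60 of 41174 probes and 43 of 27573 gene names, 17 of them ligands, 25 of them receptors and 1 a match by name alone. That last gene, annotated as Tnfsf5ip1, is now called Psmg2, a proteasome assembly chaperone that does not belong to the superfamily. Tnfrsf19l of the annotation is now Relt, a receptor of the family, and Tnfsf12-tnfsf13 is now Tnfsfm13, the fused transcript of the neighbouring Tnfsf12 and Tnfsf13 genes.

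TNF superfamily ligands are mostly trimeric proteins that are made at the cell membrane and can be shed from it, and each binds 1 or a few receptors of the matching receptor family. Receptors with a death domain can assemble caspase complexes, whereas the others recruit TRAF adaptor proteins, and both routes can activate the transcription factor NF-kappaB. Decoy receptors bind a ligand without passing on a signal. In liver the family is known for its part in hepatocyte death and regeneration, in the expansion of bile duct and progenitor cells, and in the cross-talk of macrophages and lymphocytes.

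Liver RNA was measured on 20 single-colour Agilent arrays, 1 per mouse, from male mice aged 28 weeks on a mixed Sv129/C57Bl6J background. The 4 groups held 5 mice each: LXR alpha/beta double knockout on Western diet, wild-type on Western diet, LXR alpha/beta double knockout on normal diet (chow) and wild-type on normal diet. The diets were fed for 7 weeks, and the labels name no other allele or agent. LXR alpha and beta, the liver X receptors, are transcription factors that oxidised cholesterol activates, and no cell type is named for the deletion. All values below are log2 signals relative to the 75th percentile of the same array, so 0 is the level of the 75th percentile. A value compares mice for 1 probe and does not rank genes against each other. "Rose" and "fell" mean a Benjamini-Hochberg adjusted p under 0.05 from limma over all genes tested, and differences are given ± SE.

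The deleted genes separated the genotypes on every array. Nr1h3 (LXR alpha) lay between -5.44 and -3.74 in the knockout and between 3.82 and 4.68 in the wild-type mice on Western diet. Nr1h2 (LXR beta) lay between -5.28 and -3.57 in the knockout and between 0.60 and 0.82 in the wild-type mice on that diet. Arrays had 75th percentiles between 170.3 and 435.1 intensity units, and between 53.48% and 67.05% of probes were well above background, which limits what the dim probes can show. Knockout mouse 1 on normal diet had the highest value of its group in 12 of 29 tested genes, as did wild-type mouse 1 on Western diet. In that knockout mouse the summed signal of 10 macrophage markers was 120.6, against 20.98 to 86.88 in the other 4 mice of its group, in multiples of the array's 75th percentile. Tnf and Ltb are therefore also given without it.

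Of the 43 genes, 29 were tested because their probe stood well above background in 4 or more mice of any group. Of these 29, 17 were above background on all 20 arrays, and 10 were above it on fewer than 4 arrays in some group, so that part of their difference was a condition for being tested. The 14 genes not tested comprise the ligands Lta, Tnfsf4, Cd40lg, Cd70, Tnfsf8, Tnfsf9, Tnfsf11, Tnfsf12 and Tnfsf18 and the receptors Tnfrsf8, Tnfrsf9, Tnfrsf13c, Tnfrsf17 and Tnfrsf23. Of these, 9 were not well above background on any array: Cd40lg, Lta, Tnfrsf17, Tnfrsf9, Tnfsf11, Tnfsf12, Tnfsf18, Tnfsf4 and Tnfsf9. Tnfsf8 was above background on 6 arrays, Tnfrsf23 on 3, and Cd70, Tnfrsf13c and Tnfrsf8 on 1 each.

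On Western diet the knockout livers had higher signals for most TNF family genes that could be tested. Of the 29 genes, 19 rose and 3 fell in knockout relative to wild-type mice, where 57.7% of all 17525 genes passed the threshold, 25% rising and 32.7% falling. On normal diet 12 rose and 2 fell, where 19.8% of all 17523 genes passed, 11.4% rising and 8.42% falling. The median difference of the 29 genes was 1.30 on Western diet, against -0.16 over all genes, and 0.47 on normal diet, against -0.06 over all genes. Among the 17 genes above background on all 20 arrays, 10 rose and 1 fell on Western diet, with 59.6% of genes called under the same filter, and 4 rose and 1 fell on normal diet, with 19.5% called. The gene of these 17 that fell on each diet was Psmg2, which is outside the family. Counts of the 29 genes here and below include it. These counts describe the list and are not a test of it. They depend on the background correction: limma's normexp correction left 7 calls on Western and 1 on normal diet, and normexp fitted without outlier spots, an alternative chosen after seeing the data, ended 9 of the 14 calls on normal diet and those of Cd40 and Tnfrsf10b on Western diet. On Western diet 17 of the 29 genes had all knockout values above all wild-type values and 1 had them all below, whereas 42.3% of all genes had groups that did not overlap. On normal diet 8 lay above and 1 below, against 14.8% of all genes.

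**Figure D1:**
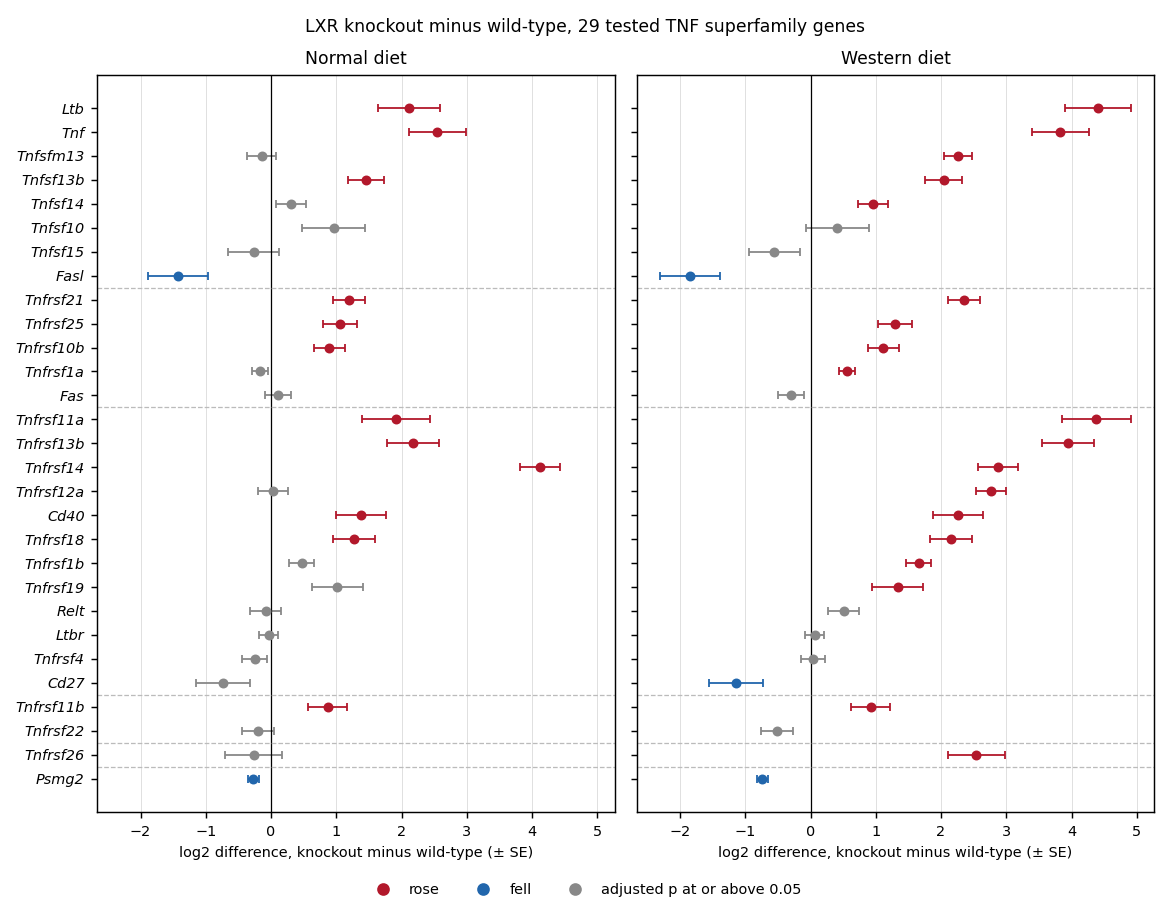
Log2 difference of knockout minus wild-type mice (points, ± SE, 5 mice per group, horizontal axis) for the 29 tested genes, in the order of ligands, death domain receptors, TRAF-binding receptors, decoy receptors, Tnfrsf26 and Psmg2 (vertical axis, divided by dashed lines), on normal diet (left) and Western diet (right). On Western diet 19 genes rose (red), with Ltb (4.40) and Tnfrsf11a (4.38) furthest to the right, and on normal diet Tnfrsf14 stands furthest to the right (4.12).

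The comparisons were made on whole liver, in which more cells of a type and more RNA per cell cannot be told apart. The cell type markers also differed between these groups. In knockout relative to wild-type mice on Western diet, 9 of 10 macrophage markers rose, where 25% of all genes rose and 32.7% fell. The summed signal of the macrophage markers was 276.8 to 365.0 in knockout mice, against 28.04 to 102.0 in wild-type mice. All 5 Kupffer cell markers fell, to a sum of 0.234 to 0.459 in knockout, against 23.36 to 94.20 in wild-type mice. All 5 cholangiocyte markers rose (147.1 to 206.7 in knockout, 33.50 to 146.3 in wild-type mice), as did 6 of 8 stellate cell and fibroblast markers (82.45 to 165.3 in knockout, 10.82 to 18.90 in wild-type mice) and 4 of 5 tested neutrophil markers (a median sum of 17.5 in knockout and 3.62 in wild-type mice). Of 7 hepatocyte markers 6 fell (469.2 to 555.6 in knockout, 673.6 to 864.3 in wild-type mice). Of 9 tested T cell markers 2 rose and 1 fell, and of 5 B cell markers 3 rose and 2 fell. On normal diet 4 of 10 macrophage and 4 of 9 tested T cell markers rose in knockout relative to wild-type mice, and 3 of 5 Kupffer cell markers fell. Western diet raised 9 of 10 macrophage and all 5 cholangiocyte markers in knockout mice and lowered all 7 tested hepatocyte markers, where 22.7% of all genes rose and 27.8% fell. In wild-type mice it raised 1 of 5 cholangiocyte and lowered 1 of 7 hepatocyte markers, where 3.26% of all genes rose and 2.72% fell. No macrophage, Kupffer cell or T cell marker passed there in limma, although 2, 1 and 1 of them had an unadjusted p under 0.05. The part of these markers in the changes of TNF family genes was not tested.

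Among the ligands, Tnf and Ltb, which lie next to each other on chromosome 17, rose on both diets, and Lta, which completes that cluster, was below background on every array. Tnf encodes TNF itself, a cytokine made chiefly by activated macrophages. Its probe (mm8, chromosome 17, 34807902 to 34807961) read -1.50, -1.66, -1.25, -2.41 and -1.12 in knockout mice 1 to 5 on Western diet, against -4.89, -5.44, -4.92, -6.62 and -5.20 in wild-type mice on that diet. On normal diet it read -1.64, -3.06, -2.72, -4.12 and -3.74 in knockout mice, against -6.12, -5.79, -5.01, -6.29 and -4.79 in wild-type mice. The genotypes did not overlap on either diet, but Tnf was well above background on only 2 wild-type arrays on Western diet and 1 on normal diet, so the wild-type level is poorly fixed. The difference was 3.82 ± 0.44 on Western diet (14.2-fold, adjusted p = 6.76e-07) and 2.54 ± 0.44 on normal diet (adjusted p = 0.00042). With each dim value raised to the lowest signal that counted as above background on its array, these differences became 3.45 and 1.66. Without knockout mouse 1 the difference on normal diet was 2.19 ± 0.40 (adjusted p = 0.00115). That call was lost with normexp (0.49, adjusted p = 0.758) and with normexp without outlier spots (0.39, adjusted p = 0.149). The call on Western diet was lost with normexp too (0.61, adjusted p = 0.295).

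Ltb encodes lymphotoxin beta, which anchors lymphotoxin at the surface of lymphoid cells and signals through Ltbr. Its probe (mm8, chromosome 17, 34804204 to 34804263) read 2.74, 4.09, 2.41 and 3.23 in knockout mice 1, 3, 4 and 5 on Western diet, the spot of mouse 2 having been left out as an outlier, against -0.40, -1.23, -1.80, -1.30 and -1.70 in wild-type mice. On normal diet the values were 2.49, 0.26, 0.47, -1.01 and 0.40 in knockout mice, against -1.52, -1.09, -1.61, -2.16 and -1.58 in wild-type mice. Every knockout value lay above every wild-type value on each diet, although knockout mouse 1 on normal diet reached the level of the Western diet group. The difference was 4.40 ± 0.51 on Western diet (21.1-fold, adjusted p = 1.1e-06) and 2.11 ± 0.48 on normal diet (adjusted p = 0.00458), or 1.62 ± 0.37 without mouse 1 (adjusted p = 0.0073). Western diet raised Ltb by 2.60 ± 0.51 in knockout mice (adjusted p = 0.000383), against 0.31 ± 0.48 in wild-type mice (adjusted p = 0.761). These diet differences themselves differed by 2.29 ± 0.70 (adjusted p = 0.0211), a call that was lost without knockout mouse 3 on Western diet (1.96, adjusted p = 0.0548).

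The promoters of 4 of the 5 ligand genes that rose on Western diet are given because the family both activates and responds to NF-kappaB. That of the other, Tnfsfm13, held no match and is not printed. RefSeq (GRCm38.p6) held promoters for 32 of the 43 genes, and the 250 bases before each start were searched on both strands for the classical decamer of NF-kappaB, which reads as the capitals in the Ltb window on its reverse strand, and for the AP-1 motif TGAGTCA. The NF-kappaB letters occurred in 0.14% of all 32851 promoters and, among 36 promoters of family genes, in that of Ltb alone, on the reverse strand, beginning 87 bases before the start. The AP-1 letters occurred in 4.46% of all promoters and in 5 family genes, Fas, Tnfrsf8, Tnfrsf9, Tnfsf13b and Tnfsf14. In the 2 ligand genes among these they begin 127 (Tnfsf13b) and 160 (Tnfsf14) bases before the start. The DR4 motif of LXR, a pair of AGGTCA repeats with NNNN between them, occurred in 0.0152% of all promoters and in none of these windows. Capitals mark these matches in the windows below, which run 5′ to 3′ on the strand of the gene, and a match of letters is not a bound site.
Ltb (chromosome 17, chr17:35194257-35194506, plus strand): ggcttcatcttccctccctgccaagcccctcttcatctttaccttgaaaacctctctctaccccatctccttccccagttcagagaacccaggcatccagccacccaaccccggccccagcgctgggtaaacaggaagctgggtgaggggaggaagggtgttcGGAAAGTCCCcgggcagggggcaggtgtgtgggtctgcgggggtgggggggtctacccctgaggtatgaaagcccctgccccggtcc
Tnf (chr17:35202008-35202257, minus strand, no match): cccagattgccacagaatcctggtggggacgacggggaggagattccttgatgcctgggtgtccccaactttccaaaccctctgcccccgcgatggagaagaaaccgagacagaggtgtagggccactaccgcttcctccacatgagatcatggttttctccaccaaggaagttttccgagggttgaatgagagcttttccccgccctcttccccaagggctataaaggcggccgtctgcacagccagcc
Tnfsf13b (chr8:10006383-10006632, plus strand, the second of 2 promoters): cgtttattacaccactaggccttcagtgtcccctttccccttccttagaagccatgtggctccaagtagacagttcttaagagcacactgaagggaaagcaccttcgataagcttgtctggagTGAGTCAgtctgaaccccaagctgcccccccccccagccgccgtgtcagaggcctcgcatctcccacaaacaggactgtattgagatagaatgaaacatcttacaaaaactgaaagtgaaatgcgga
Tnfsf14 (chr17:57194182-57194431, minus strand): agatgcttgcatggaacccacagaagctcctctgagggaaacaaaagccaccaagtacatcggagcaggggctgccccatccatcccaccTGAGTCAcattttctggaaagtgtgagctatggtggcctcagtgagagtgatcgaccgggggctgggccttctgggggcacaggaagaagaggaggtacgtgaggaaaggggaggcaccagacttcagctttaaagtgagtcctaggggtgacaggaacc
The starts of Ltb and Tnf lie 7.5 kb apart and those of Tnf and Lta 3.3 kb apart, so the 2 ligand genes that rose and the ligand gene below background share a short stretch of chromosome 17.

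Among ligands of the B cell survival receptors, a Tnfsf13b probe and the Tnfsfm13 probe rose on Western diet, with different patterns. Tnfsf13b encodes BAFF, which myeloid and stromal cells make to keep B cells alive. It read -1.96, -1.63, -2.08, -2.91 and -2.22 in knockout mice on Western diet, against -3.59, -4.18, -4.11, -4.22 and -4.87 in wild-type mice. Fed chow, the signal was -2.14, -2.96, -2.81, -3.80 and -3.18 in knockout mice, against -4.29, -4.49, -4.75, -4.27 and -4.41 in wild-type mice. The groups did not overlap on either diet, with differences of 2.04 ± 0.28 on Western diet (adjusted p = 5.35e-06) and 1.46 ± 0.28 on chow (adjusted p = 0.00102). The call on chow was lost with normexp without outlier spots (0.22, adjusted p = 0.383). A second Tnfsf13b probe, for a different transcript, passed on neither diet (-0.09 ± 0.49 and 0.35 ± 0.49).

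The probe named Tnfsfm13 matches the fused transcript that carries Tnfsf13, whose product APRIL also supports B cells and plasma cells, and signals from the 2 transcripts cannot be told apart. Tnfsf12 (TWEAK), the other gene of this locus, was below background on every array. The Tnfsfm13 probe (mm8, chromosome 11, 69499350 to 69499409) read 2.55, 2.59, 2.86, 2.18 and 2.38 in knockout mice on Western diet, against 0.37, 0.67, 0.16, 0.12 and -0.03 in wild-type mice on that diet. In mice on normal diet the values were -0.39, -1.48, -0.87, -0.98 and -0.08 in knockout mice, against -0.59, -0.20, -0.58, -0.87 and -0.83 in wild-type mice. The genotypes overlapped on normal diet (-0.14 ± 0.22, adjusted p = 0.68) and were separate on Western diet (2.26 ± 0.22, 4.78-fold, adjusted p = 9.3e-08). Western diet raised the signal by 3.27 ± 0.22 in knockout mice (adjusted p = 2.17e-09) and by 0.87 ± 0.22 in wild-type mice (adjusted p = 0.0218), and these differences differed by 2.40 ± 0.31 (adjusted p = 2.27e-05). The call in wild-type mice was lost without mouse 1 or 2 on Western diet or mouse 4 or 5 on normal diet (0.77 to 0.85, adjusted p = 0.0559 to 0.0703).

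**Figure D2:**
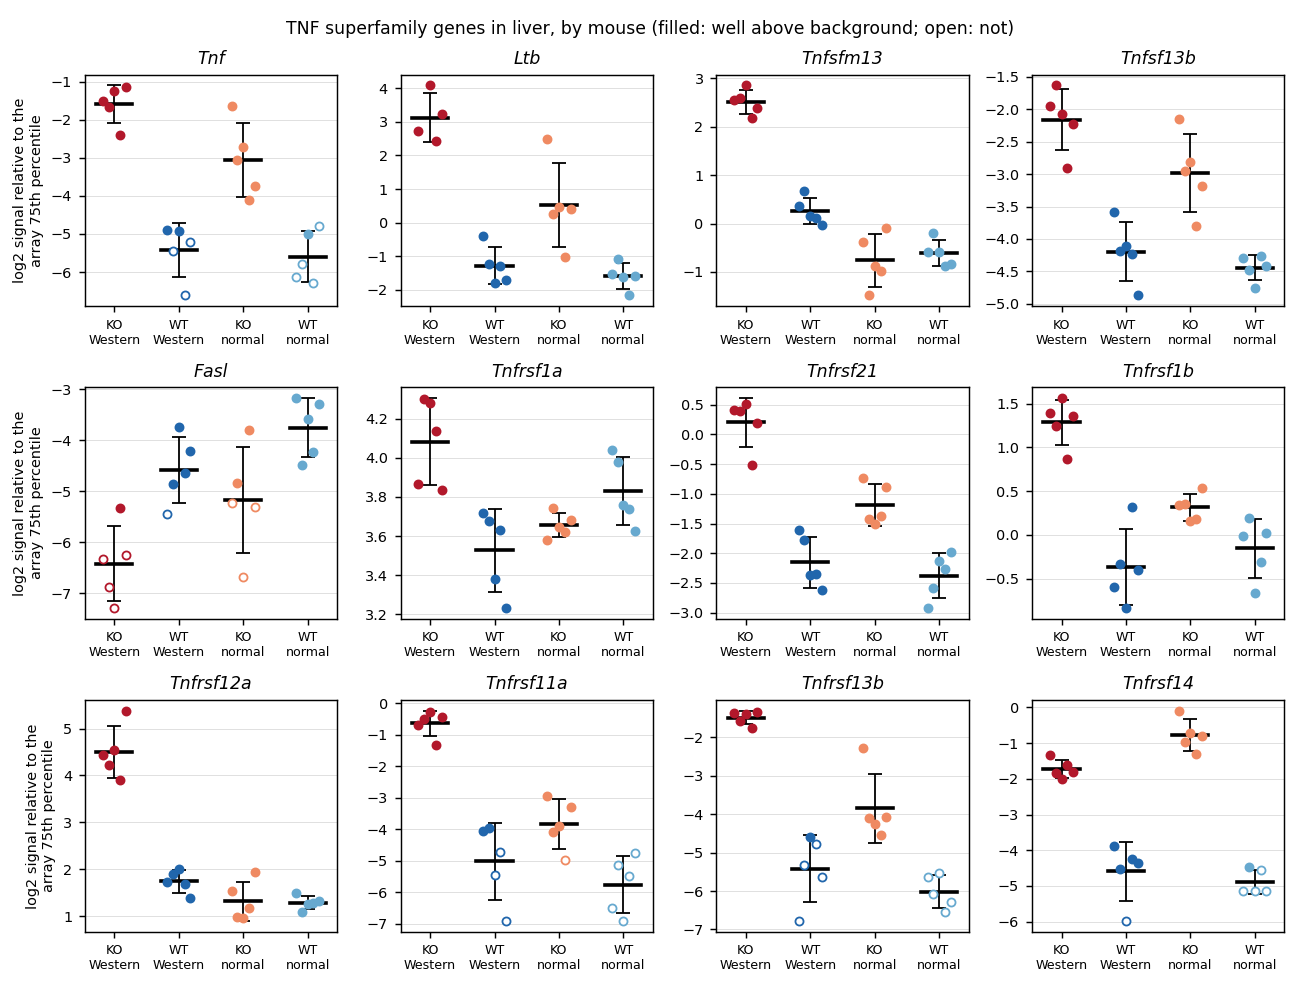
Log2 signal relative to the array's 75th percentile (vertical axes, which differ between panels) of 12 TNF superfamily genes in each mouse, with knockout (KO) and wild-type (WT) mice on Western and on normal diet along the horizontal axis. Points are mice, filled where the probe was well above background, and lines are the mean ± SD of 5 mice (4 for Ltb in knockout mice on Western diet). For Tnfrsf12a and Tnfsfm13 the knockout mice on Western diet lie above all other mice, Tnfrsf14 is high in knockout mice on both diets, and Fasl is lowest in knockout mice on Western diet.

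Of the other 4 ligands that were tested, 1 rose and 1 fell on Western diet. Tnfsf14 encodes LIGHT, a ligand of Tnfrsf14 and Ltbr, and rose on Western diet (-2.19, -1.15, -1.45, -2.02 and -1.57 in knockout, -2.82, -2.07, -2.42, -2.63 and -3.26 in wild-type mice), with the groups overlapping at their edges (0.96 ± 0.23, adjusted p = 0.00146). Fasl, the ligand of the death receptor Fas, which cytotoxic lymphocytes carry, went the other way. It read -6.34, -6.87, -7.30, -5.34 and -6.26 in knockout mice on Western diet, against -5.45, -4.86, -3.74, -4.64 and -4.21 in wild-type mice. Only 1 knockout array was above background, and the groups overlapped by 1 mouse. The difference was -1.84 ± 0.46 on Western diet (adjusted p = 0.0022) and -1.42 ± 0.46 on normal diet (adjusted p = 0.0366), and it shrank to -0.92 and -1.03 with dim values raised to the detection level. The call on normal diet was lost without any 1 of 6 mice, knockout mouse 1, 3 or 5 or wild-type mouse 1, 3 or 5 (-1.40 to -1.04, adjusted p = 0.065 to 0.105). A second Fasl probe of the same transcript was too dim to be tested, and its means went the other way. They were -6.01 in knockout and -6.43 in wild-type mice on Western diet, and -5.67 and -6.51 on normal diet. It was above background on 2 knockout arrays on Western diet, 1 on normal diet and 0 wild-type arrays. Tnfsf10 (TRAIL, a ligand of Tnfrsf10b) and Tnfsf15 passed in no comparison, with genotype differences on Western diet of 0.41 ± 0.48 (adjusted p = 0.488) and -0.55 ± 0.39 (adjusted p = 0.237).

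Among the 5 death domain receptors, 4 rose on Western diet, where 25% of all genes rose, and Fas did not pass. Tnfrsf1a encodes TNFR1, the main receptor of soluble TNF. It read 3.87, 4.30, 4.28, 4.14 and 3.83 in knockout mice on Western diet, against 3.72, 3.68, 3.38, 3.63 and 3.23 in wild-type mice. The groups did not overlap, and the difference was small (0.55 ± 0.12, adjusted p = 0.000725). It was -0.17 ± 0.12 on normal diet (adjusted p = 0.342), and the diet differences of the genotypes differed by 0.73 ± 0.17 (adjusted p = 0.00392). All of the Tnfrsf1a calls were lost when arrays were scaled by their median signal, the difference on Western diet then being 0.47 (adjusted p = 0.0568). Fas read 2.56 to 2.85 in knockout mice, against 2.36 to 3.57 in wild-type mice on Western diet (-0.29 ± 0.20, adjusted p = 0.216), so at this precision no difference was detectable.

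Tnfrsf21, known as death receptor 6, rose on both diets. It read 0.41, 0.40, 0.51, -0.51 and 0.20 in knockout mice on Western diet, against -1.61, -1.78, -2.37, -2.35 and -2.63 in wild-type mice. On chow it read -0.74, -1.42, -1.52, -1.37 and -0.88 in knockout mice, against -2.93, -2.59, -2.13, -2.27 and -1.98 in wild-type mice. The 4 groups formed steps, with the knockout mice on Western diet highest, those on normal diet next and both wild-type groups overlapping below. The difference was 2.35 ± 0.24 (adjusted p = 1.89e-07) on Western diet and 1.19 ± 0.24 (adjusted p = 0.00174) on normal diet. A second probe of the same transcript gave 2.29 ± 0.25 and 1.04 ± 0.25, and the probe of another transcript passed on neither diet (0.29 ± 0.32 on Western and -0.84 ± 0.32 on normal diet). With the mean of these probes the call on normal diet was lost (0.46, adjusted p = 0.145). Tnfrsf25 (death receptor 3, the receptor of Tnfsf15) rose by 1.30 ± 0.26 on Western diet (adjusted p = 0.000369) and 1.06 ± 0.26 on normal diet (adjusted p = 0.00794).

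Tnfrsf10b, the mouse TRAIL receptor, rose by 1.11 ± 0.23 on Western diet (adjusted p = 0.000526) and by 0.90 ± 0.23 on normal diet (adjusted p = 0.0114). It read -3.28 to -2.92 in knockout mice, against -4.71 to -3.68 in wild-type mice on Western diet, and -4.37 to -3.59 in knockout mice, against -5.75 to -4.21 in wild-type mice on normal diet. The genotypes were separate on Western diet and overlapped on normal diet. Without knockout mouse 3 on Western diet, when another of its probes stood for the gene, the differences were 0.88 (adjusted p = 0.0756) on Western and 0.95 (adjusted p = 0.0895) on normal diet. Without wild-type mouse 4 on normal diet the difference on that diet was 0.57 (adjusted p = 0.198). With another background correction, fitted without outlier spots, it was -0.08 on normal diet.

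Among the 16 TRAF-binding receptors, 12 were tested, and 8 rose and 1 fell on Western diet, where 25% of all genes rose and 32.7% fell. Tnfrsf12a, known as Fn14, is the receptor of TWEAK and is best known in injured epithelia and in the expansion of liver progenitor cells. Its probe (mm8, chromosome 17, 23403401 to 23403460) read 4.44, 4.22, 4.54, 3.90 and 5.38 in knockout mice on Western diet, against 1.72, 1.89, 2.00, 1.68 and 1.39 in wild-type mice on that diet. With normal diet the readings were 1.53, 0.98, 0.95, 1.16 and 1.95 in knockout mice, against 1.48, 1.08, 1.26, 1.28 and 1.31 in wild-type mice. The 5 knockout mice on Western diet lay above all 15 other mice, and the genotypes overlapped on normal diet. The difference was 2.76 ± 0.23 on Western diet (6.77-fold, adjusted p = 1.5e-08) and 0.03 ± 0.23 on normal diet (adjusted p = 0.943). Western diet raised Tnfrsf12a by 3.18 ± 0.23 in knockout mice (9.09-fold, adjusted p = 5.24e-09), against 0.45 ± 0.23 in wild-type mice (adjusted p = 0.284), and these differed by 2.73 ± 0.32 (adjusted p = 1.04e-05). Within slides the Western diet difference was positive on 4 of 4 slides, from 1.90 to 3.70.

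Tnfrsf11a encodes RANK, known from osteoclasts and dendritic cells. It read -0.68, -0.51, -0.29, -1.32 and -0.43 in knockout mice on Western diet, against -4.06, -3.98, -5.45, -4.72 and -6.92 in wild-type mice. Values on normal diet were -2.94, -4.09, -3.89, -4.99 and -3.30 in knockout mice, against -6.51, -5.13, -6.92, -5.50 and -4.75 in wild-type mice, none of which was well above background. The knockout mice on Western diet lay above all others, and the genotypes overlapped on normal diet. The difference was 4.38 ± 0.52 on Western diet (20.9-fold, adjusted p = 1.2e-06), and the diet differences of the genotypes differed by 2.46 ± 0.74 (adjusted p = 0.0189), or 3.06 with dim values raised to the detection level. Only 2 of 5 wild-type arrays on Western diet were well above background, so the sizes of these differences are poorly fixed. With normexp the genotype call on Western diet was lost (1.15, adjusted p = 0.0504). On normal diet knockout mice were higher by at least 1.87-fold (adjusted p = 0.0146), a call lost with the series matrix values (0.33, adjusted p = 0.146) and with normexp without outlier spots (0.097, adjusted p = 0.684). A second probe gave 1.75 ± 0.55 on Western diet (adjusted p = 0.011), and on normal diet it was well above background on 0 of 5 knockout and 1 of 5 wild-type arrays. At-least folds set the mean of the brighter group against the lowest signal that counted as above background in the dimmer one. Tnfsf11 (RANKL), the ligand, was below background on every array. Tnfrsf11b (osteoprotegerin), its decoy receptor, rose on Western diet (0.92 ± 0.30, adjusted p = 0.0124). On normal diet it rose by 0.87 ± 0.30 (adjusted p = 0.0463), a call lost without any 1 of 11 of the 20 arrays (0.63 to 0.94, adjusted p = 0.0506 to 0.127). These were knockout mice 1, 2 and 5 and wild-type mouse 4 on Western diet, and knockout mice 1, 2, 4 and 5 and wild-type mice 1, 2 and 4 on normal diet.

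Tnfrsf13b encodes TACI, a receptor of both BAFF and APRIL on B cells. It read -1.36, -1.56, -1.38, -1.75 and -1.35 in knockout mice on Western diet, against -6.78, -5.33, -4.59, -4.76 and -5.63 in wild-type mice. On normal diet the probe read -2.28, -4.10, -4.24, -4.54 and -4.06 in knockout mice, against -5.64, -6.09, -5.52, -6.53 and -6.30 in wild-type mice. All knockout arrays were well above background, against 1 of 5 wild-type arrays on Western and 0 of 5 on normal diet. The difference was 3.94 ± 0.40 on Western diet (15.3-fold, adjusted p = 1.62e-07), or 3.51 with dim values raised to the detection level, and on normal diet knockout mice were higher by at least 1.93-fold (adjusted p = 0.000791, or 0.293 with normexp without outlier spots). With normexp the call on Western diet was lost (0.74, adjusted p = 0.207). A second Tnfrsf13b probe was below background on every array and was not tested. Its means on Western diet were -6.98 in knockout and -6.77 in wild-type mice, so the rise rests on the first probe alone. The other receptors of BAFF and APRIL, Tnfrsf13c (BAFF receptor) and Tnfrsf17 (BCMA), were above background on 1 array and on none. Summed B cell markers were 0.835 to 1.26 in knockout mice, against 0.432 to 0.514 in wild-type mice on Western diet. The B cell markers did not move together: Ms4a1 fell there (-0.98 ± 0.28, adjusted p = 0.00584), whereas Cd22 rose (2.82 ± 0.27, adjusted p = 9.97e-08).

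Tnfrsf14, known as HVEM, a receptor of LIGHT and of the inhibitory molecule BTLA, was the receptor with the largest difference on normal diet. Its probe (mm8, chromosome 4, 153765965 to 153766024) read -1.33, -1.84, -2.00, -1.60 and -1.82 in knockout mice on Western diet, against -3.87, -4.53, -5.99, -4.23 and -4.34 in wild-type mice on that diet. In chow-fed mice it read -0.09, -0.96, -0.70, -1.30 and -0.79 in knockout mice, against -5.15, -4.46, -5.13, -4.56 and -5.13 in wild-type mice, 1 of which was above background. The genotypes were far apart on both diets, and within the knockout mice those on Western diet lay below those on normal diet. The genotype difference was 2.88 ± 0.31 on Western diet (7.35-fold, adjusted p = 3.19e-07) and 4.12 ± 0.31 on normal diet (17.4-fold, adjusted p = 5.32e-08). With normexp the call on Western diet was lost (0.56, adjusted p = 0.251). A second probe was well above background on all knockout arrays and on 0 of 5 wild-type arrays on each diet, so it gives no exact genotype difference. Western diet lowered Tnfrsf14 in knockout mice (-0.95 ± 0.31, adjusted p = 0.0158). That call was lost with array median scaling (-0.88, adjusted p = 0.0737) and with quantile normalization (-0.93, adjusted p = 0.07). The second probe gave -0.98 ± 0.24 in knockout mice (adjusted p = 0.00216). The fall by the first probe stood against 0.29 ± 0.31 in wild-type mice (adjusted p = 0.639). The test of that difference (-1.24 ± 0.44, adjusted p = 0.0413) was lost without any 1 of 13 arrays (-1.25 to -1.06, adjusted p = 0.0555 to 0.0765), namely 3 of 5 knockout arrays on each diet (mice 2, 3 and 5 on Western, 1, 3 and 5 on normal diet), wild-type mice 1, 2, 4 and 5 on Western diet and wild-type mice 1, 3 and 5 on normal diet.

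Tnfrsf1b encodes TNFR2, the TNF receptor of immune and endothelial cells. It read 1.40, 1.24, 1.56, 0.87 and 1.36 in knockout mice on Western diet, against -0.60, -0.33, -0.84, 0.32 and -0.40 in wild-type mice. The groups were separate, with a difference of 1.66 ± 0.19 (3.15-fold, adjusted p = 9.45e-07), whereas on normal diet it was 0.47 ± 0.19 (adjusted p = 0.1). The diet differences of the genotypes differed by 1.19 ± 0.27 (adjusted p = 0.00348). A second probe, above background on all 20 arrays, gave -0.24 ± 0.27 on Western diet (adjusted p = 0.455), so that the 2 probes disagree.

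Cd40 and Tnfrsf18 rose on both diets. Cd40, through which T cells activate B cells and macrophages, read -3.38, -2.74, -3.17, -3.60 and -2.84 in knockout mice on Western diet, against -4.42, -5.40, -5.56, -5.87 and -5.79 in wild-type mice, 1 of which was above background. The groups did not overlap (2.26 ± 0.38, adjusted p = 6.3e-05), and on normal diet knockout mice were higher by at least 1.34-fold (adjusted p = 0.0161). The call on normal diet was lost with quantile normalization (adjusted p = 0.053), with only the groups compared (adjusted p = 0.0551), with the series matrix values (adjusted p = 0.228) and with normexp without outlier spots (adjusted p = 0.777), which also ended that on Western diet (0.32, adjusted p = 0.0537). Its ligand Cd40lg was below background on every array. Tnfrsf18, the T cell receptor GITR, rose by 2.15 ± 0.32 on Western (adjusted p = 1.56e-05) and 1.28 ± 0.32 on normal diet (adjusted p = 0.00869), where normexp without outlier spots gave 0.34 (adjusted p = 0.149). Its neighbour Tnfrsf4 (OX40), whose start lies 12.6 kb away on chromosome 4, passed in no comparison (0.03 ± 0.19 on Western diet, adjusted p = 0.886). Tnfrsf19, a receptor of epithelial and progenitor cells, rose on Western diet (1.34 ± 0.39, adjusted p = 0.0069).

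Cd27, a costimulatory receptor of T cells, fell on Western diet. It read -4.54, -5.36, -6.86, -5.80 and -4.76 in knockout mice, against -4.81, -4.52, -3.61, -5.12 and -3.55 in wild-type mice. The groups overlapped, only 2 knockout arrays were above background, and the difference was positive on some slides (-2.34 to 0.36 over 4 slides). The call (-1.14 ± 0.41, adjusted p = 0.0236) was lost without knockout mouse 3 or wild-type mouse 3 or 5 (-0.96 to -0.79, adjusted p = 0.0664 to 0.0813). Ltbr, the receptor of lymphotoxin and LIGHT, read 4.09 to 4.30 in knockout mice, against 3.89 to 4.29 in wild-type mice on Western diet (0.06 ± 0.15, adjusted p = 0.737). Ltbr and Relt passed in no comparison.

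Tnfrsf26, Tnfrsf22 and Tnfrsf23 lie in a cluster on chromosome 7, and of these Tnfrsf26 rose on Western diet. It read -2.12, -2.57, -2.13, -3.53 and -2.83 in knockout mice on Western diet, against -6.13, -5.06, -4.47, -5.51 and -4.70 in wild-type mice. On normal diet it lay between -6.61 and -4.84 in knockout and between -6.00 and -4.19 in wild-type mice, mostly below background. The knockout mice on Western diet lay above all others (2.54 ± 0.44, adjusted p = 7.47e-05), and the diet differences of the genotypes differed by 2.80 ± 0.62 (adjusted p = 0.00248). The probe was well above background on 5 knockout and 2 wild-type arrays on Western diet, and on 1 and 2 on normal diet. Tnfrsf26 was therefore tested only through the group in which it was high, and the sizes of these differences are poorly fixed. Tnfrsf22, a mouse decoy receptor of TRAIL in the same cluster, passed in no comparison (-0.52 ± 0.25 on Western diet, adjusted p = 0.0782). Tnfrsf23 was above background on 2 knockout arrays and 0 wild-type arrays on Western diet. Psmg2, outside the family, fell on Western diet (-0.74 ± 0.09, adjusted p = 9.51e-07) and on normal diet (-0.27 ± 0.09, adjusted p = 0.0357), the second call being lost without any 1 of 6 mice (knockout mouse 1, 4 or 5 or wild-type mouse 2, 4 or 5, with -0.28 to -0.22 and adjusted p = 0.0566 to 0.0966).

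More family genes passed the threshold for diet in knockout than in wild-type mice. Western relative to normal diet raised 15 and lowered 4 of the 29 genes in knockout mice, where 50.4% of all genes passed, 22.7% rising and 27.8% falling. In wild-type mice 2 genes rose and 0 fell, where 5.98% of all genes passed, 3.26% rising and 2.72% falling. Apart from the genes given above, Tnfrsf1b rose by 0.97 ± 0.19 in knockout mice (adjusted p = 0.000414), Tnfrsf21 by 1.39 ± 0.24 (adjusted p = 0.000106), Tnf by 1.47 ± 0.44 (adjusted p = 0.009) and Cd40 by 1.23 ± 0.38 (adjusted p = 0.0125). The second Tnfrsf1b probe gave -0.17 ± 0.27 (adjusted p = 0.626). The call of Cd40 was lost with normexp without outlier spots (0.085, adjusted p = 0.62), and that of Tnf with normexp (0.13, adjusted p = 0.822). Tnfrsf11a rose by 3.20 ± 0.52 (adjusted p = 5.93e-05), Tnfrsf26 by 2.88 ± 0.44 (adjusted p = 2.66e-05) and Tnfrsf13b by 2.37 ± 0.40 (adjusted p = 7.7e-05). All 3 receptors were also higher in knockout than in wild-type mice on Western diet, as given above. Cd27 fell (-1.30 ± 0.41, adjusted p = 0.0135). On Western diet the knockout mice lay wholly above those on normal diet for 9 genes and wholly below for 2, where 34.3% of all genes did not overlap. In wild-type mice 1 gene lay wholly above and 0 below, where 8.11% of all genes did not overlap.

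Several of the smaller diet calls in knockout mice depended on single arrays or on which probe stood for the gene. Those of Tnfrsf18 (0.92 ± 0.32, adjusted p = 0.0235) and Tnfsf14 (0.62 ± 0.23, adjusted p = 0.03) were each lost without any 1 of 5 arrays. For Tnfrsf18 these were knockout mouse 2 or 3 on Western diet or 2, 3 or 4 on normal diet (0.78 to 0.87, adjusted p = 0.0504 to 0.0655). For Tnfsf14 they were knockout mouse 2, 3 or 5 on Western diet or 2 or 3 on normal diet (0.49 to 0.61, adjusted p = 0.0556 to 0.0918). That of Tnfsf13b (0.82 ± 0.28, adjusted p = 0.0188) was lost without knockout mouse 2 on Western diet or 4 on normal diet (0.62 to 0.69, adjusted p = 0.0576 to 0.062). The Tnfsf13b call was also lost with the mean of the gene's probes (0.16, adjusted p = 0.583), with quantile normalization (adjusted p = 0.0523), with only the groups compared (adjusted p = 0.0534) and with normexp without outlier spots (0.28, adjusted p = 0.147). Fasl fell (-1.25 ± 0.46, adjusted p = 0.0305), but not without knockout mouse 2 or 3 on Western or 2 or 4 on normal diet (-1.17 to -0.91, adjusted p = 0.0649 to 0.0978). Tnfrsf10b rose by 1.04 ± 0.23 (adjusted p = 0.00117). Without knockout mouse 3 on Western diet another of its probes stood for the gene and did not pass (0.77, adjusted p = 0.132). With all arrays that other probe did not pass either (0.76 ± 0.37, adjusted p = 0.0936). The call was also lost with normexp without outlier spots (0.048, adjusted p = 0.712). In wild-type mice Tnfrsf10b rose by 0.82 ± 0.23 (adjusted p = 0.0447), a call lost without any 1 of 14 of the 20 arrays (0.46 to 0.87, adjusted p = 0.0502 to 0.427). These were mice 1, 2, 3 and 5 of both genotypes on Western diet, and knockout mice 1 and 3 and wild-type mice 1 to 4 on normal diet. Without knockout mouse 3 on Western diet the value was that of the other probe (0.84, adjusted p = 0.23).

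**Figure D3:**
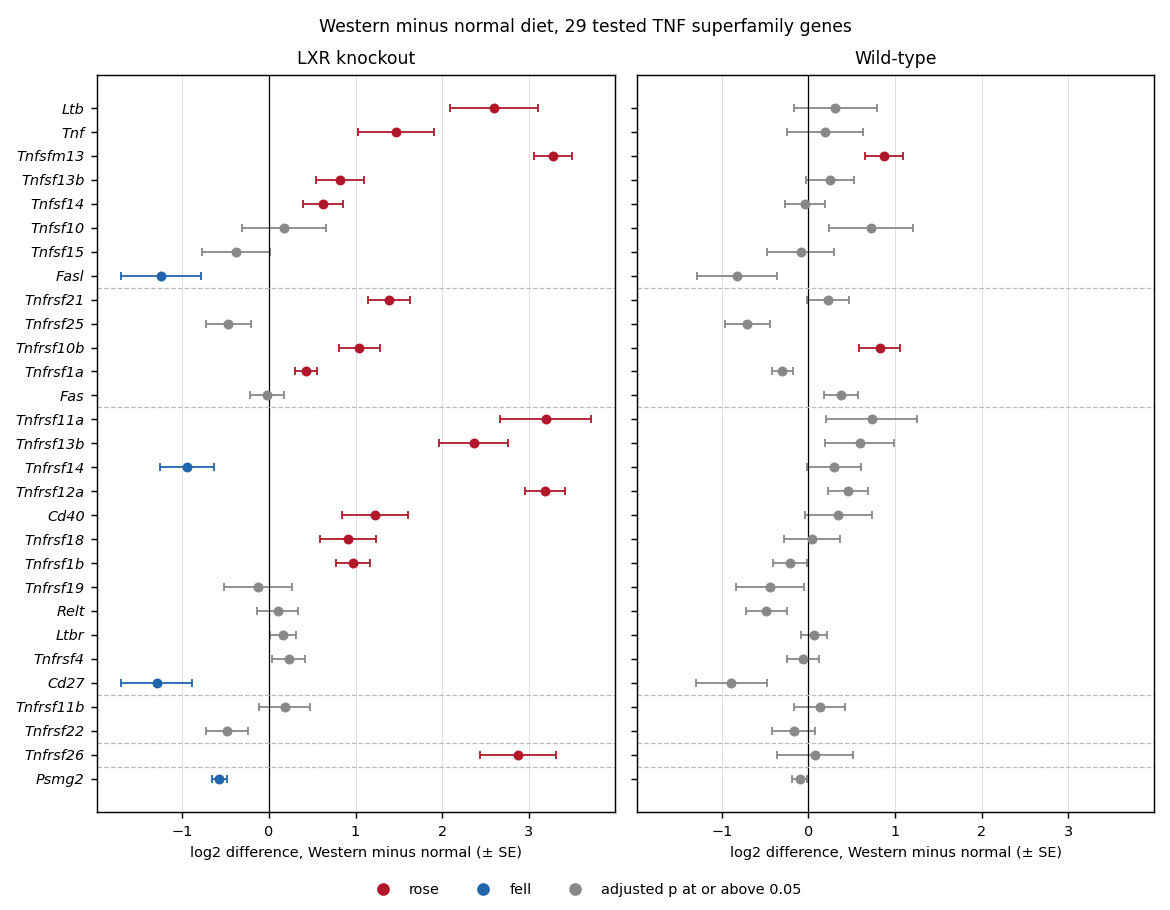
Log2 difference of Western minus normal diet (points, ± SE, 5 mice per group, horizontal axis) for the 29 tested genes in the order used above (vertical axis), in knockout mice (left) and wild-type mice (right). In knockout mice Tnfsfm13 (3.27), Tnfrsf11a (3.20) and Tnfrsf12a (3.18) lie furthest to the right, and in wild-type mice Tnfsfm13 (0.87) and Tnfrsf10b (0.82) passed the threshold.

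The test of whether diet acted differently in the 2 genotypes found 11 of the 29 genes, 9 with a positive and 2 with a negative value, where 27.6% of all genes passed, 12.9% positive and 14.7% negative. The positive genes were Tnfrsf26, Tnfrsf12a, Tnfrsf11a, Tnfsfm13, Ltb, Tnfrsf13b, Tnfrsf1b, Tnfrsf21 and Tnfrsf1a, and the negative ones Tnfrsf14 and Psmg2. Of these, Tnfrsf26 was tested only through the group in which it was high, as given above. Tnfrsf21 had a value of 1.16 ± 0.34 (adjusted p = 0.0165) and Tnfrsf13b 1.77 ± 0.56 (adjusted p = 0.0255). Array median scaling ended the calls of Psmg2, Tnfrsf14, Tnfrsf1a and Tnfrsf21 (1.11, adjusted p = 0.0778, for Tnfrsf21). Other probes did not pass for Tnfrsf1b (0.11, adjusted p = 0.867) and Tnfrsf11a (1.85, adjusted p = 0.0889). They passed for Tnfrsf14 (-1.61, adjusted p = 0.00178) and Psmg2 (-0.61, adjusted p = 0.00302). For Tnfrsf21 1 passed (1.26, adjusted p = 0.0145) and 1 did not (1.13, adjusted p = 0.0715). The Tnfrsf13b call was lost with slide as a fixed block (1.79, adjusted p = 0.0517) and with quantile normalization (1.53, adjusted p = 0.0695). With dim values raised to the detection level the value was 2.56. Only wild-type values were dim, with 1 array above background on Western and 0 on normal diet. The 2.56 therefore rests on the detection levels of those arrays and does not strengthen the call. Tnf, with the second largest genotype difference of the ligands on Western diet, did not pass (1.28 ± 0.62, adjusted p = 0.137), nor did Tnfsf13b (0.58 ± 0.39, adjusted p = 0.307). Without knockout mouse 1 on normal diet the value of Tnf was 1.63 ± 0.55 (adjusted p = 0.0347) and that of Tnfrsf18 1.18 ± 0.38 (adjusted p = 0.0263), against 0.88 ± 0.45 (adjusted p = 0.167) for Tnfrsf18 with it. Cd40 also passed without that mouse (adjusted p = 0.00959, against 0.257 with it).

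The genes on which TNF receptors act were read from lists of adaptors and kinases, of NF-kappaB subunits and feedback genes, and of related receptors and processing proteins. In knockout mice on Western diet 13 of 18 tested genes of the NF-kappaB list rose and 1 fell relative to wild-type mice (77.8% called, against 57.7% of all genes), with a median of 1.86, against -0.16 over all genes. Ccl2, the monocyte chemokine, rose by 5.65 ± 0.62 (adjusted p = 3.83e-07), Ier3, an early response gene, by 4.72 ± 0.41 (adjusted p = 2.66e-08) and Vcam1, a leukocyte adhesion molecule, by 3.84 ± 0.31 (adjusted p = 9.84e-09). Tnfaip3, which encodes the inhibitor A20 of this route, rose by 2.81 ± 0.55 (adjusted p = 0.000263) and the subunit gene Relb by 2.65 ± 0.56 (adjusted p = 0.000536). On normal diet 4 rose (Ier3, Vcam1, Nfkbie and Nfkb1) and 0 fell, or 22.2%, near the 19.8% of all genes, and 2 were called with normexp without outlier spots. In knockout mice Western diet raised 12 and lowered 1 (72.2%, against 50.4% of all genes). In wild-type mice no gene of this list passed, where 5.98% of all genes did, 0 of 18 also having an unadjusted p under 0.05 in limma. The summed signal of 18 measured genes was 143.0 to 186.1 in knockout mice, against 99.26 to 146.6 in wild-type mice on Western diet. On normal diet it was 203.8 in knockout mouse 1, which was also highest for Tnf and Ltb, and 126.1 to 159.5 in the other 4 knockout mice.

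The adaptors and kinases were called about as often on Western diet as all genes. Of 32 genes 7 rose and 12 fell in knockout relative to wild-type mice on Western diet (59.4%, against 57.7% of all genes), with a median of -0.12, against -0.16 over all genes. Traf1, an adaptor that is itself an NF-kappaB target, rose by 1.88 ± 0.29 (adjusted p = 1.99e-05), Ripk3, the necroptosis kinase, by 1.54 ± 0.33 (adjusted p = 0.000656), Map3k14, the kinase of the noncanonical route, by 1.30 ± 0.27 (adjusted p = 0.000398) and Birc3, a ubiquitin ligase of the TNFR1 complex, by 1.26 ± 0.25 (adjusted p = 0.000312). Of the 12 genes that fell, only the caspase inhibitor gene Xiap is named here (-1.44 ± 0.26, adjusted p = 0.000164). The lowest difference of the list was -1.48, in another gene. On normal diet 3 rose (Traf1, Ripk3 and Birc2) and 2 fell, Tab2 among them (15.6%, against 19.8% of all genes). Western diet raised Mlkl, the effector of necroptosis, by 1.81 ± 0.38 in knockout mice (adjusted p = 0.000625), and Mlkl also rose in wild-type mice (adjusted p = 0.0236).

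Of 8 related receptors and processing proteins that were tested, 5 rose and 1 fell in knockout relative to wild-type mice on Western diet (75%, against 57.7% of all genes), and 3 rose on normal diet (37.5%, against 19.8% of all genes). Tnfaip8, which is named for its induction by TNF, rose by 3.59 ± 0.25 on Western diet (adjusted p = 1.62e-09). Eda2r, the receptor of ectodysplasin A2, was higher on normal diet by at least 2.46-fold in knockout mice (adjusted p = 5.34e-07), where it was above background on 5 of 5 knockout and 0 of 5 wild-type arrays. In wild-type mice Western diet raised it by at least 1.51-fold (adjusted p = 4.59e-05), and in knockout mice it fell with Western diet (-0.72 ± 0.25, adjusted p = 0.0237). Ngfr, the neurotrophin receptor of this family, fell in knockout relative to wild-type mice on Western diet (-1.66 ± 0.24, adjusted p = 1.01e-05). Adam10, a sheddase, rose there by 1.20 ± 0.22 (adjusted p = 0.00013), and Rhbdf2, a partner of the TNF sheddase, by 1.05 ± 0.30 (adjusted p = 0.00605). Adam17, the TNF sheddase itself, rose by 0.40 ± 0.16 (adjusted p = 0.0387).

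**Figure D4:**
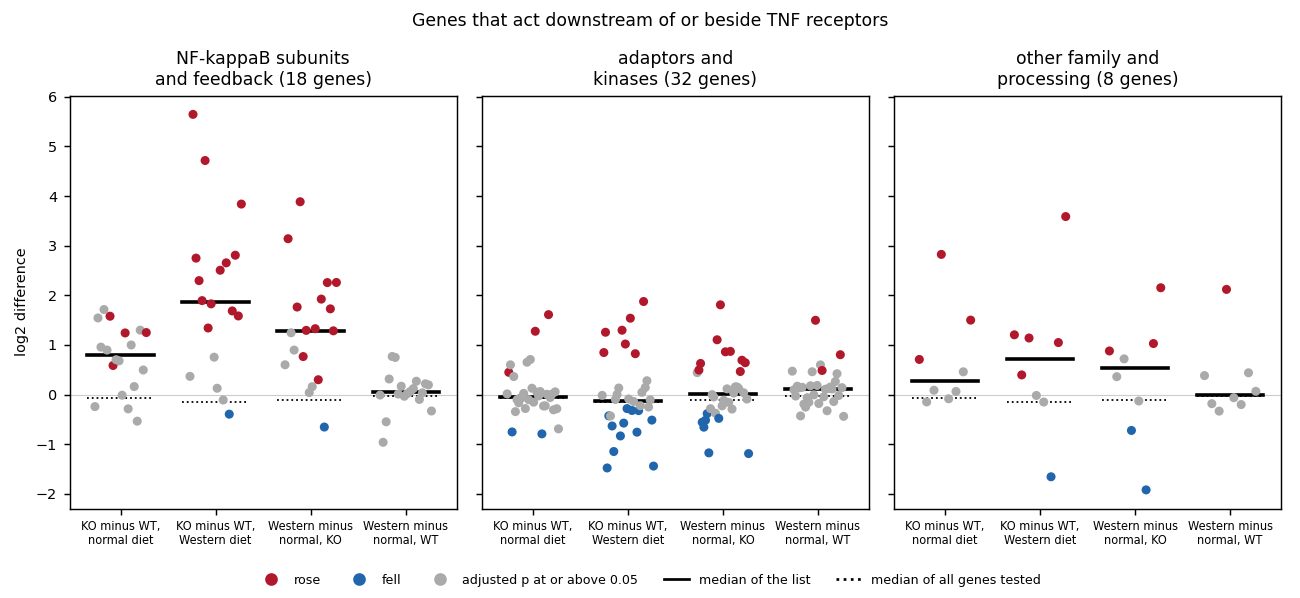
Log2 differences (vertical axis) of single genes (points) in 3 lists of genes around TNF receptors, for the genotype difference on each diet and the diet difference in each genotype (horizontal axis), with the list median (solid line) and the median of all genes tested (dotted line). The NF-kappaB list has its highest median for knockout minus wild-type mice on Western diet (1.86), and the adaptors and kinases lie near the median of all genes.

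Ligands and receptors that bind each other were read side by side for knockout relative to wild-type mice on Western diet. Tnf rose by 3.82 and its receptor Tnfrsf1a by 0.55, a call lost with median scaling. Its receptor Tnfrsf1b rose by 1.66, but the second probe of that gene gave -0.24. Ltb rose (4.40) while its receptor Ltbr had 0.06. LIGHT rose by 0.96 and its receptor Tnfrsf14 by 2.88. BAFF rose by 2.04, but its second probe gave -0.09. The Tnfsfm13 signal rose by 2.26 and the shared receptor Tnfrsf13b by 3.94, its second probe being below background on every array. Fn14 (Tnfrsf12a), RANK (Tnfrsf11a) and Cd40 rose by 2.76, 4.38 and 2.26, while the probes of their ligands Tnfsf12, Tnfsf11 and Cd40lg were below background on all 20 arrays. Fasl fell (-1.84) by its tested probe, while its second probe, mostly below background, had a higher mean in knockout mice. Fas had -0.29, and TRAIL (Tnfsf10) had 0.41 while its receptor Tnfrsf10b rose by 1.11.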

How the data were processed

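Liver RNA of 20 mice was hybridised to 20 single-colour arrays on 6 slides. The authors' scans were extracted with Feature Extraction 9.5.3.1 (protocol GE1-v5_95_Feb07, annotation mm8), and the deposited intensity used here is background-subtracted and detrended, per the file headers. The submitters' processing notes name Agilent Feature Extraction 9.5 and limma without a version. The deposited series matrix holds log2 values of 24493 probes and was used as an alternative. How its values were normalized is not given in the sources used here.

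From the files, 43379 non-control spots per array were averaged per probe without 105 to 270 outlier spots. Each log2 intensity was set against its array's 75th percentile. Names came from RefSeq accessions for 23374 probes, current symbols for 6733 and synonyms for 2919, and file names stayed for 8148. The probe with the highest mean stood for a gene (14 of the 43 genes had more than 1 probe), and genes that stood well above background in 4 or more of the 5 mice of any group were tested. limma 3.58.1 in R 4.3.3 with the data.table package, version 1.17.8, (lmFit and eBayes, 4 group means, 16 residual degrees of freedom, two-sided) gave 5 comparisons, adjusted by Benjamini-Hochberg within each at 0.05. The fit was tested on simulated data. Promoters and figures used Python 3.11.15, pandas 2.3.3, numpy 2.4.6 and matplotlib 3.10.9.

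The named genes were all 43 by the rule above, Nr1h3 and Nr1h2, up to 6 called genes with the largest differences from each of 3 partner lists, and cell type markers, some of which are not reported here. Members, lists and promoter motifs were chosen with earlier results of these data known. The design text gives 5 mice per group. Alternatives covered scaling, background correction, the series matrix, filters, probe choice, moderation, slide and replicate blocks, which groups entered the fit, and each array left out in turn.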

Additional observations from a re-analysis of the deposited data

Results flagged for a closer look

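Among 116 groups of 4 or 5 mice, 3 held a mouse far from the rest by Dixon's ratio, which chance gives in about 1 of 20 groups. These were Ltbr in knockout mouse 3 on Western diet (4.30), Tnfrsf13b in knockout mouse 1 on normal diet (-2.28) and Tnfrsf22 in knockout mouse 4 on normal diet (-2.21).

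For 11 genes the diet difference in knockout mice differed past the threshold from that in wild-type mice. It was positive for Tnfrsf26 (2.80), Tnfrsf12a (2.73), Tnfrsf11a (2.46), Tnfsfm13 (2.40), Ltb (2.29), Tnfrsf13b (1.77), Tnfrsf1b (1.19), Tnfrsf21 (1.16) and Tnfrsf1a (0.73). It was negative for Tnfrsf14 (-1.24) and Psmg2 (-0.47).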

How the results depend on the processing

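Dim probes limit these results, since their values depend on the background correction. Apart from the 2 normexp corrections, 19 of 22 calls for genotype on Western diet, 7 of 14 for genotype on normal diet, 12 of 19 for diet in knockout mice, 0 of 2 for diet in wild-type mice and 5 of 11 for the interaction held under every alternative that tested the gene, and no call turned its direction. Under normexp with an offset of 50, called genes numbered 7, 1, 5, 0 and 5 in that order (9, 4, 7, 1 and 5 at an unadjusted p under 0.05 in limma). For genotype on Western diet this correction ended 15 calls, among them those of the ligands Fasl, Tnf, Tnfsf13b and Tnfsf14. The others were those of Cd27, Cd40, Tnfrsf10b, Tnfrsf11a, Tnfrsf11b, Tnfrsf13b, Tnfrsf14, Tnfrsf18, Tnfrsf19, Tnfrsf25 and Tnfrsf26. Differences then turned for diet in knockout mice in Cd40 (-0.30), Tnfrsf10b (-0.23), Tnfrsf18 (-0.042), Tnfrsf26 (-0.000100), Tnfsf13b (-0.14) and Tnfsf14 (-0.029), and for genotype on Western diet in Cd40 (-0.038) and Tnfrsf10b (-0.12). That fit left a 1st percentile of corrected signal between 54.66 and 603.7 intensity units per array, against 53.32 to 54.28 without outlier spots, an alternative added after seeing the data. That alternative gave 6 calls for genotype on normal diet, 4 higher and 2 lower, and 1 for diet in wild-type mice, a lower one. It turned Tnfrsf10b for diet in wild-type mice (-0.15) and for genotype on normal diet (-0.080). Testing only genes above background on all 20 arrays left 17 genes, with 11, 5, 8, 1 and 6 calls. Median scaling gave 1 call for diet in wild-type mice and 7 for the interaction, all of them positive, and moved the median of all genes for diet in wild-type mice to 0.08, against -0.03. The series matrix, no filter, the mean of a gene's probes, trend and robust moderation and a fit of only the groups compared gave 1 call for diet in wild-type mice. Leaving out each array gave 20 to 23, 11 to 14, 15 to 19, 0 to 2 and 9 to 13 calls. Same-numbered mice of a genotype mostly shared a slide and then correlated (0.17 to 0.49 in wild-type mice 2 to 5, best match in 4 of 4, and -0.041 to 0.45 in knockout mice), but over all pairs of groups correlations ran from -0.40 to 0.49, so the numbers were not used as pairs. With slide as a fixed block the calls numbered 24, 12, 21, 2 and 10, and as a random block 24, 15, 20, 2 and 11. With a replicate block, 1 gene was called for diet in wild-type mice, and the other counts stayed within 1.5 times.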
